A study of Glycine max with 46 samples.

Results

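The late enzymes of anthocyanin and proanthocyanidin synthesis were followed in soybean (Glycine max) through 5 genes named by their IDs: the dihydroflavonol reductases (DFR) Glyma.14G072700 and Glyma.17G252200, the anthocyanidin synthases (ANS) Glyma.01G214200 and Glyma.11G027700, and the anthocyanidin reductase (ANR) Glyma.08G062000. They are 5 of the 56044 genes in the deposited tables, the longest cDNA model standing for each gene, and all 5 were present in both tables. The best Arabidopsis hits recorded there are DFR/TT3 for the first pair, ANS/LDOX for the second pair and BAN (BANYULS) for the last gene, so the names match the annotation. By the longest model, 6 other genes of the tables also have DFR as their best hit, 4 have BAN and 0 have ANS; DFR, ANS and ANR without an ID mean the 5 genes named above, not the activity as a whole. Below, the 2 DFR genes are called by chromosome (14 and 17, the number carried in the ID), as are the 2 ANS genes (1 and 11).

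DFR reduces dihydroflavonols to leucoanthocyanidins, and ANS oxidises these to the coloured anthocyanidins. At that point the pathway forks: glycosylation of anthocyanidins gives anthocyanin pigments, whereas ANR turns them into the colourless flavan-3-ol epicatechin, a building block of proanthocyanidins (condensed tannins) that brown when oxidised. In soybean, the I locus silences chalcone synthase, the enzyme at the head of the pathway, in the seed coat, and the late enzymes act downstream of that block.

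Messenger RNA was measured in 46 libraries of 24 groups, with seed coat stages given as seed fresh weight. T157 (i R t, labelled imperfect black) was set against its yellow-coated counterpart Richland (I R t), with 4 coat libraries each. The black-coated Williams lines W44 (i RT w1, labelled as an inversion; 6 libraries) and W55 (i R w1, labelled as a 138 kb deletion; 2 late libraries) were set against W43 (i-i RT w1, yellow coat and black hilum; 5 libraries). The genotype label of the late W55 coats reads like that of W43 and contradicts their other labels, so their genotype rests on the line name. Black hila and the yellow coat without hilum were dissected from W43 seeds of 25-50 mg and 50-100 mg, with 2 libraries per tissue and weight. Single coat libraries came from UC9 (Clark, i R T W1, black), RM38 (Clark, i r T W1, brown), UC501 (Harosoy, I r T W1, yellow) and UC508 (a Harosoy isoline, I r T W1 Def, with a net-like coat defect). The remaining coat and seed libraries were 5-6 mg coats of W55 (2) and whole seeds at 5 days after flowering of W55 (2), T157 and Richland. Leaves of T157 and Richland came from 4-week plants. So did roots of W55 and of W54, which the labels equate with W43. Roots of 5-day W43 seedlings were flooded for 12 or 24 h. Flowers came from a Williams W1 isoline with purple flowers.

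Libraries held 18.1 to 545.0 M (M, mega) counted alignments, so that 1 read in a 1 kb model stood for 0.00183 to 0.0553 RPKM (reads per kb of model length and M of alignments). The median library placed 11.03% of its alignments in models without a description. The 3 coat libraries that stood apart were the 5-6 mg coats of W55, with 88.6% and 80.6% there, and the W44 coat of 50-100 mg, with 56.2%. Several values that rest on these 3 are also given scaled to described models, with every library compared put on that scale. Nothing in the labels says that libraries of a group came from separate plants, so p-values measure the spread between libraries, which may be technical. For the 5-6 mg W55 coats against whole seeds, as deposited, that spread was taken almost wholly from all genes together. In the line series the weights served as replicates. The 44 green-tissue genes summed to 23808 to 50088 RPKM in leaves, the 25 root genes to 343 to 623 in roots and the 51 genes described by the word pollen to 2282 in the flower, each the highest sum among the tissues.

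Transcripts of the 5 genes were abundant in young seed coats and close to absent from leaf and root. The 17 coats of up to 100 mg held 29.6 to 307 RPKM of the chromosome 14 DFR (median 157.4), 6.57 to 90.9 of the chromosome 17 DFR (median 53.7) and 59.3 to 271 of ANR (median 143). The ANS genes ranged from 119.0 to 530.4 RPKM on chromosome 1 (median 244) and from 115.0 to 582.5 on chromosome 11 (median 295). The lowest DFR and ANS values come from the 5-6 mg W55 coats. Without the 3 libraries that stood apart, the other 14 coats held 73.7 to 307 RPKM of the chromosome 14 DFR, 31.7 to 90.9 of the chromosome 17 DFR, 146.1 to 530.4 and 178.6 to 582.5 of ANS on chromosomes 1 and 11, and 59.3 to 271 of ANR. RM38, the brown r line, had the highest ANS levels as deposited, 530.4 and 582.5 RPKM. Scaled to described models it stood at 591 and 649, below the 5-6 mg W55 coats at 1044 and 890.2 on chromosome 1 and 1009 and 861 on chromosome 11. In W43 coats of 10-50 mg the chromosome 11 ANS was the gene with rank 52 among all genes of the library, the chromosome 1 ANS had rank 64, the chromosome 14 DFR rank 85, ANR rank 100 and the chromosome 17 DFR rank 592. Whole seeds, which contain coat and embryo, stood lower than most young coats for the chromosome 14 DFR, at 18.9 to 79.2 RPKM. For ANR they stood at 31.5 to 148.9 RPKM. The T157 whole seed, the highest, exceeded both young T157 coats (136.4 and 80.2). The Richland whole seed (109.9) lay between the young Richland coats (214.8 and 83.02), and W55 whole seeds lay below the 5-6 mg W55 coats.

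**Figure D1:**
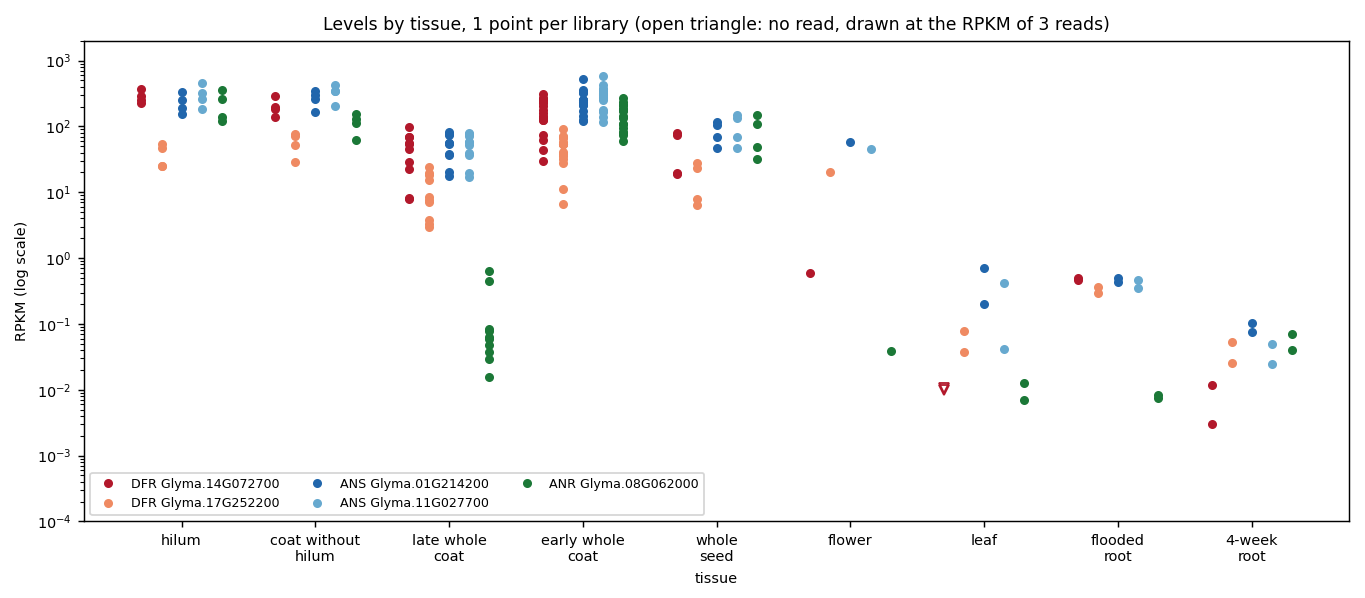
RPKM (log scale) of the 5 enzymes by tissue, 1 point per library and 1 colour per gene. ANR lies near the DFR and ANS genes in hila, young coats and whole seeds but below 1 RPKM in all 10 late coats and in the flower, while in the flower the chromosome 14 DFR alone of the DFR and ANS genes lies below 1 RPKM.

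The flower library separated the 2 DFR genes. It held 20.4 RPKM of the chromosome 17 DFR (95% exact Poisson interval of the reads 20.1 to 20.8) but 0.600 of the chromosome 14 DFR (0.537 to 0.668). Early coats had the reverse order, with 2.15 to 5.42 times as much chromosome 14 as chromosome 17 transcript in every one of the 17 libraries, against 0.0294 times in the flower. Both ANS genes were present in the flower, at 57.6 RPKM on chromosome 1 and 44.9 on chromosome 11, whereas ANR was represented by 22 reads, or 0.0383 RPKM (0.0240 to 0.0579). Of the 4 other genes with BAN as best hit, Glyma.19G254600 stood at 4.25 RPKM in the flower, Glyma.03G256600 at 3.54, Glyma.19G254700 at 3.41 and Glyma.08G062100 at 0.0187. Of the other DFR-hit genes, Glyma.17G173200 stood at 5.00 RPKM there and Glyma.14G072900 at 3.87. The low level of Glyma.08G062000 is thus that of 1 gene. The flower is 1 library with no replicate check, and all intervals cover counting error only.

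Leaf and root levels were 0.715 RPKM or less for each of the 5 genes. This does not hold for all DFR-hit and BAN-hit genes outside the 5. Of the BAN-hit genes, Glyma.19G254600 stood at 7.64 RPKM in the Richland leaf and 6.11 in the 4-week W43 root. Another, Glyma.08G062100, stood at 0.00781 or less in leaf and root. Of the DFR-hit genes, Glyma.02G158700 stood at 43.4 RPKM in the 4-week W43 root and 39.3 in the W55 root. In the flooded roots it stood at 32.5 (12 h) and 31.4 (24 h). In leaves the chromosome 14 DFR had no read in either library, against a set floor of 3 reads, and ANR had 2 reads in T157 and 4 in Richland. The chromosome 1 ANS was at 0.715 RPKM in the T157 leaf (0.618 to 0.823) and 0.200 in the Richland leaf (0.152 to 0.258). Roots of flooded 5-day seedlings held 0.502 RPKM (12 h) and 0.468 (24 h) of the chromosome 14 DFR, against 0.0119 in the 4-week W55 root and 0.00298 in the 4-week W43 root. The other DFR and ANS genes stood at 0.292 to 0.498 RPKM in the flooded roots and at 0.0246 to 0.104 in the 4-week roots, while ANR was lower in the flooded roots, with 2 reads in each against 24 and 14. Flooding and age differ together between these roots, no library of unflooded seedlings was analysed here, and 1 library per condition allows no test.

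The weight series follows each enzyme as the seed fills. In T157 and Richland all 5 transcripts fell in coats of 300-500 mg (late) relative to coats of 10-100 mg (early), with the largest fitted difference in ANR. The test was limma's on log2(RPKM + 1) over 29080 genes, and a gene was called where its p, adjusted after Benjamini and Hochberg, was under 0.05. By it 5 of 5 were called lower, where 52.8% of all genes were called and 30.8% called lower. For all 5 the late and early libraries did not overlap, as held for 30.5% of genes in that direction. Over all genes the calls split into 6385 higher and 8958 lower, and into 9154 higher and 6937 lower after rescaling libraries by the median ratio, which left the 5 members' calls in place.

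The chromosome 14 DFR stood in T157 at 178, 157.4, 53.6 and 22.9 RPKM at 10-25, 50-100, 300-400 and 400-500 mg. In Richland it stood at 249, 206, 99.5 and 68.7 RPKM at the same weights. Late coats of both lines averaged 61.2 ± 31.9 RPKM against 198 ± 39.4 in early coats (SD, n = 4 each; log2 −1.83, SE 0.31, adjusted p = 0.0022). Its chromosome 17 copy averaged 14.9 ± 8.17 RPKM in late coats and 48.8 ± 14.9 in early coats (log2 −1.75, SE 0.30, adjusted p = 0.0023).

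The ANS genes behaved like a pair. On chromosome 11, T157 coats held 295, 319.6, 58.1 and 37.4 RPKM in order of weight, and Richland coats 348, 316, 78.5 and 77.3. Late coats averaged 62.8 ± 19.3 RPKM and early coats 319.6 ± 21.7 (log2 −2.38, SE 0.21, adjusted p = 0.00015), and on chromosome 1 the averages were 63.2 ± 20.3 and 249.7 ± 4.72 (log2 −2.03, SE 0.21, adjusted p = 0.00028). In both lines ANS stood at like levels at the early weights, and the drop lay between 100 and 300 mg.

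ANR stood apart from both. T157 coats held 136.4 and 80.2 RPKM at the early weights and 0.0643 and 0.0157 at the late ones, which are 9 and 2 reads. Richland coats held 214.8 and 83.02 RPKM early and 0.0483 and 0.0295 late, which are 6 and 4 reads. The ratio of the early to the late mean was 3260, compared with 3.23 to 5.09 for the other 4 genes, and on the log2(RPKM + 1) scale, which understates changes of low values, ANR fell by 6.84 (SE 0.30, adjusted p = 1.42e-05).

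**Figure D2:**
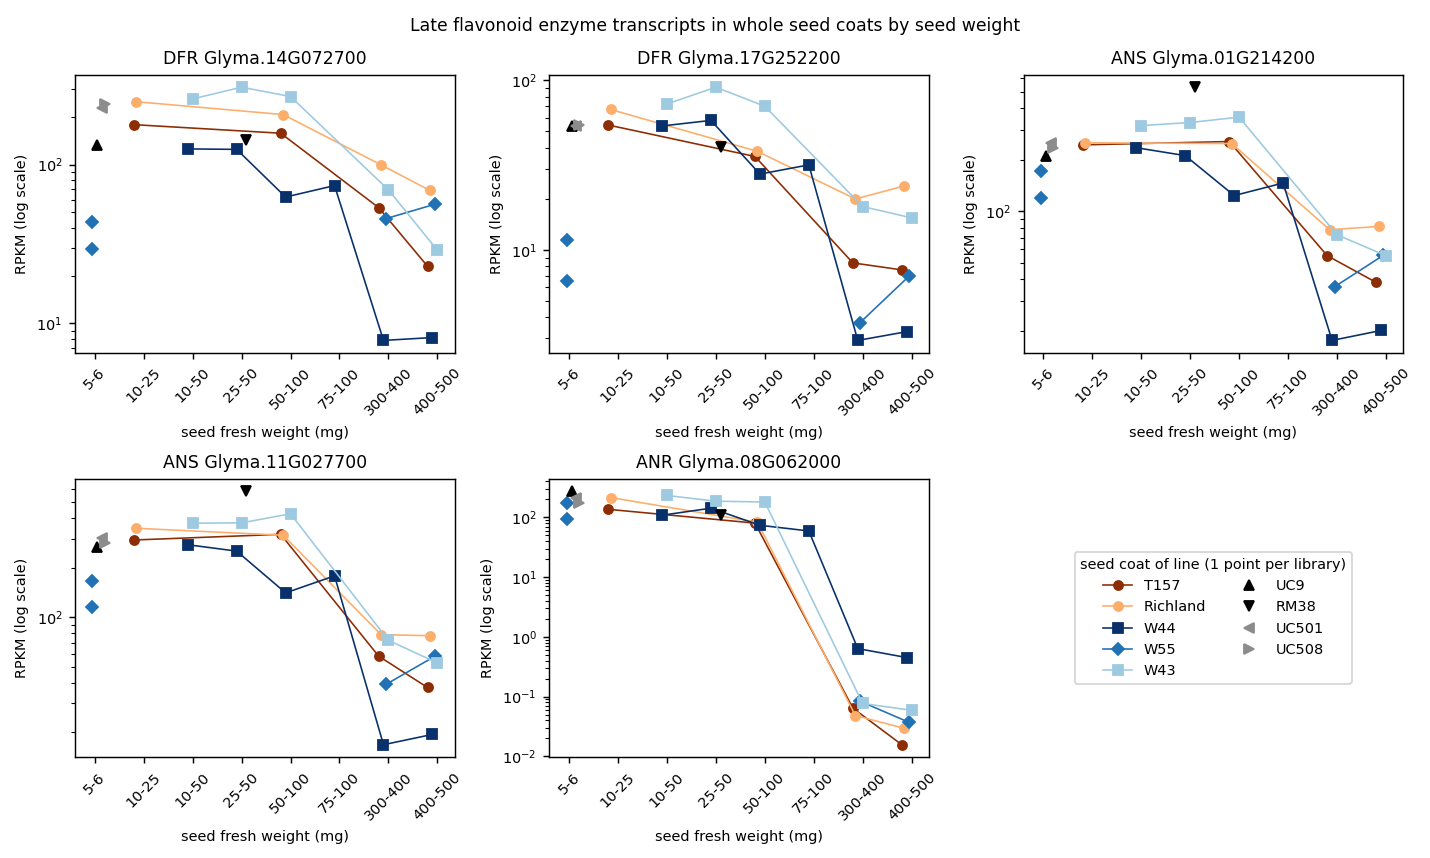
RPKM (log scale, a separate range in each panel) of each enzyme in whole seed coats against seed fresh weight, 1 point per library, with lines joining libraries of 1 line. DFR and ANS lie lower at 300-400 mg than at 50-100 mg in T157, Richland, W44 and W43, whereas ANR drops below 0.1 RPKM in T157, Richland, W55 and W43 and to 0.638 and 0.451 in W44; the 5-6 mg W55 points come from libraries with most alignments in undescribed models.

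In the Williams lines, too, all 5 genes were called lower in late coats of W44 and W43, where 40.1% of 29177 genes were called and 21.3% called lower. Apart from the chromosome 14 DFR the late and early libraries did not overlap (4 of 5 members, and 12.1% of genes in that direction). The chromosome 14 DFR in W44 stood at 125, 125, 62.4 and 73.7 RPKM at 10-50, 25-50, 50-100 and 75-100 mg and at 7.81 and 8.14 at 300-400 and 400-500 mg. In W43 it stood at 259, 307, 268, 69.4 and 28.9 RPKM at 10-50, 25-50, 50-100, 300-400 and 400-500 mg. Early and late coats did not overlap within either line, although the 300-400 mg W43 coat exceeded the 50-100 mg W44 coat as deposited; scaled to described models these 2 stood at 80.8 and 142 RPKM. The late mean was 28.6 ± 28.9 RPKM (n = 4) against 174 ± 101 in early coats (n = 7; SD; log2 −3.01, SE 0.32, adjusted p = 3.17e-07).

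The other DFR averaged 9.91 ± 7.92 RPKM in late and 57.8 ± 22.5 in early coats of W44 and W43 (log2 −2.78, SE 0.29). ANS averaged 41.4 ± 27.0 and 245 ± 91.4 RPKM on chromosome 1 (log2 −2.78, SE 0.31) and 40.4 ± 27.0 and 289 ± 107 on chromosome 11 (log2 −3.06, SE 0.32), with adjusted p from 2.07e-07 to 5.71e-07 for these 3 genes. ANR was at 0.0769 and 0.0591 RPKM (10 and 8 reads) in late W43 coats, against 232, 187 and 180.9 in early ones. In W44 it was at 0.638 and 0.451 RPKM (102 and 73 reads) in late coats, against 109, 143, 73.8 and 59.3 in early ones, and over both lines it fell by 6.68 on the log2 scale (SE 0.31, adjusted p = 6.67e-12). None of these 10 calls was lost under any setting or leave-out that was run; over all genes, 18632 were called without the 50-100 mg W44 coat, against 11713 with it.

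Late W55 coats resembled late W43 coats in ANR, at 0.0836 and 0.0371 RPKM, so that 10 of 10 late coats of 5 lines, yellow and pigmented, were below 1 RPKM. The black W44 coats stood highest of these, at 0.638 and 0.451 RPKM. The 4 other BAN-hit genes stood at 0 to 2.57 RPKM in late coats and 0 to 6.48 in early coats. Of the other DFR-hit genes, Glyma.02G158700 ran the other way from the members, at 38.2 to 55.8 RPKM in late coats and 1.91 to 33.5 in early ones. Glyma.14G072800 and Glyma.14G072900 fell, with medians of 0.154 and 0.301 in late coats and 2.71 and 2.22 in early ones. Expressed per 100 RPKM of the 2 ANS genes together, ANR stood at 0.0186 to 1.86 in the 10 late coats (median 0.0539) and at 9.72 to 56.9 in the 17 early coats (median 27.9). DFR per 100 RPKM of ANS overlapped widely between late coats (29.0 to 76.3) and early coats (15.4 to 56.4). The ratio of chromosome 11 to chromosome 1 ANS was 0.949 to 1.08 in late coats (median 0.985) and 0.967 to 1.39 in early coats (median 1.20). These ratios are descriptions of the libraries without a test, and reads shared between near-identical copies could enter both ANS rows.

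**Figure D3:**
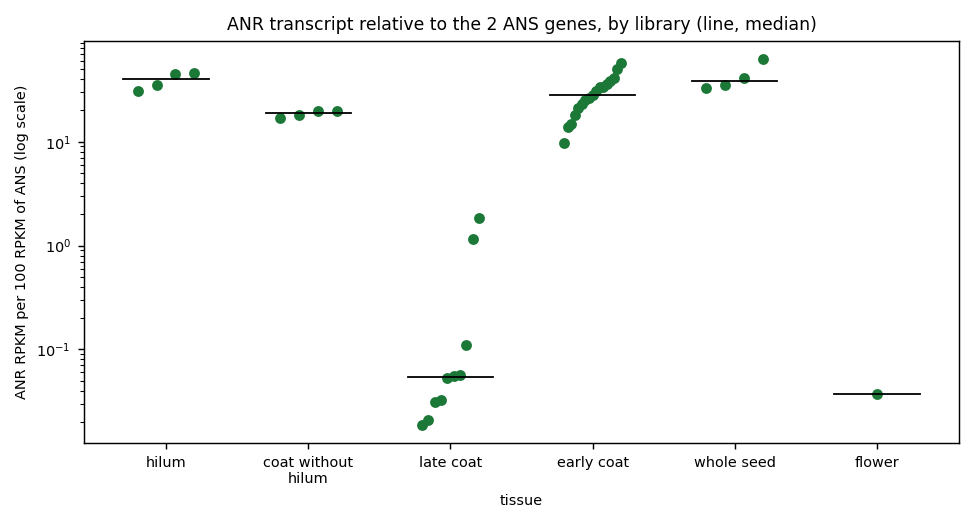
ANR RPKM per 100 RPKM of the 2 ANS genes (log scale) in each library of hilum, coat without hilum, late and early whole coat, whole seed and flower, with the median as a line. The 10 late coats (0.0186 to 1.86; the 2 highest are W44) and the flower (0.0373) lie below all other libraries, and the hila (31.1 to 45.5) lie above the coats without hilum (17.1 to 19.9).

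Several measures moved with seed weight. The 13 oleosin genes taken as embryo markers summed to 197 to 607 RPKM in late coats and 4.19 to 138 in early coats, with none at 0 in any late coat. The 44 green-tissue genes summed to 117 to 306 RPKM in late coats and 260.3 to 1816 in early coats. Their part in the declines was not tested, and in bulk tissue fewer cells of a type cannot be told from less RNA per cell. The late coats of T157, Richland, W55 and W43 carry library names from R146 to R153, a range that holds no early coat, so stage and library series cannot be told apart in these lines. In W44 the names R191 to R194 run through 25-50, 75-100, 300-400 and 400-500 mg, and in that run ANR stood at 143, 59.3, 0.638 and 0.451 RPKM and the chromosome 14 DFR at 125, 73.7, 7.81 and 8.14.

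Of the 59 other flavonoid genes, 36 were tested in T157 and Richland: 28 fell in late coats, 5 rose and 3 were not called, with a median log2 difference of −0.90 against −0.10 over all genes. In W44 and W43 34 were tested, of which 19 fell, 2 rose and 13 were not called (median −0.68 against 0.02). In T157 and Richland the largest changes were those of 2 cytochrome P450 genes whose best Arabidopsis hit is the flavonoid 3'-hydroxylase TT7, and they ran in opposite directions. They entered the list as different enzymes: Glyma.06G202300 as the T locus flavonoid 3'-hydroxylase and Glyma.13G072100 as the W1 locus flavonoid 3',5'-hydroxylase. By their labels T157 and Richland are t, and W44 and W43 are w1. Glyma.06G202300 averaged 4.68 ± 3.12 RPKM in late coats of T157 and Richland and 55.5 ± 13.3 in early ones (SD, n = 4 each; log2 −3.44, SE 0.27, adjusted p = 9.44e-05). Glyma.13G072100 averaged 26.8 ± 13.9 RPKM in late coats and 0.583 ± 0.220 in early ones (log2 4.00, SE 0.30, adjusted p = 7.86e-05). In W44 and W43 the differences of these 2 genes were −4.69 (SE 0.27) and 3.17 (SE 0.23), with adjusted p of 8.95e-11 and 2.28e-09. The flavonol synthase Glyma.05G088100, which draws on the same dihydroflavonols as DFR, averaged 12.2 ± 8.84 RPKM in late (n = 4) and 118 ± 42.97 in early coats (n = 7) of W44 and W43 (log2 −3.40, SE 0.29, adjusted p = 1.71e-08). The chalcone isomerase family gene Glyma.02G048700 averaged 0.0299 ± 0.0271 RPKM in late and 6.73 ± 4.73 in early coats of T157 and Richland (log2 −2.72, SE 0.36, adjusted p = 0.00079).

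Within W43 seeds, the black hilum was set against the yellow coat around it. ANR was higher in the hilum and the chromosome 17 DFR lower, while the ANS genes differed by less than the spread between libraries. ANR and the chromosome 17 DFR were 2 of 5 genes called, a share no higher than the background of 40.0% of 29296 genes (13.4% higher and 26.6% lower in the hilum). The chromosome 14 DFR had a positive difference that was not called. This fit left out the pairing of libraries by series. With the series as a replicate block the chromosome 14 DFR was called too, making 3 of 5 members. Over all genes, the alternatives run for this comparison called 8028 to 16212, so 3 of 5 is not read as a result about the members.

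ANR stood at 257 and 360.0 RPKM in 25-50 mg hila, against 128.04 and 152.1 in the coat at that weight. At 50-100 mg it stood at 120.1 and 141 RPKM in hila, against 62.9 and 111 in the coat. Hilum exceeded coat at both weights without overlap, although the heavier hila overlapped the lighter coats. Over both weights the mean was 219.7 ± 111 RPKM in hila and 113 ± 37.7 in coats (n = 4 each, SD), a log2 difference of 0.88 (SE 0.23, adjusted p = 0.0188). Without either one of the 25-50 mg coat libraries the call was lost (adjusted p = 0.0536 and 0.0514).

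The fitted differences of the 2 DFR genes pointed in opposite directions. The chromosome 17 DFR stood at 47.6 and 53.4 RPKM in 25-50 mg hila against 72.2 and 76.5 in the coat, and at 25.2 and 24.7 in 50-100 mg hila against 28.8 and 51.4 in the coat. It was lower in the hilum at both weights (log2 −0.58, SE 0.17, adjusted p = 0.0283), but this call ended when libraries were rescaled by the median ratio (log2 −0.41, adjusted p = 0.115) and in 5 of 8 leave-outs. The chromosome 14 DFR stood at 253.9 and 373 RPKM in 25-50 mg hila against 184 and 285 in the coat, and at 227 and 287 in 50-100 mg hila against 139.7 and 196 in the coat. Its difference was positive but not called (log2 0.52, SE 0.23, adjusted p = 0.105), and was called with the library series as a replicate block (log2 0.52, SE 0.13, adjusted p = 0.0155). The ratio of chromosome 14 to chromosome 17 DFR was 5.33 to 11.6 in the 4 hila and 2.55 to 4.85 in the 4 coats. Another DFR-hit gene, Glyma.17G252300, split by library series and not by tissue. It stood at 37.7 to 75.7 RPKM in library 1 of each group and at 0.452 to 1.06 in library 2. Any part of reads shared with it in the chromosome 17 DFR values was not tested.

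**Figure D4:**
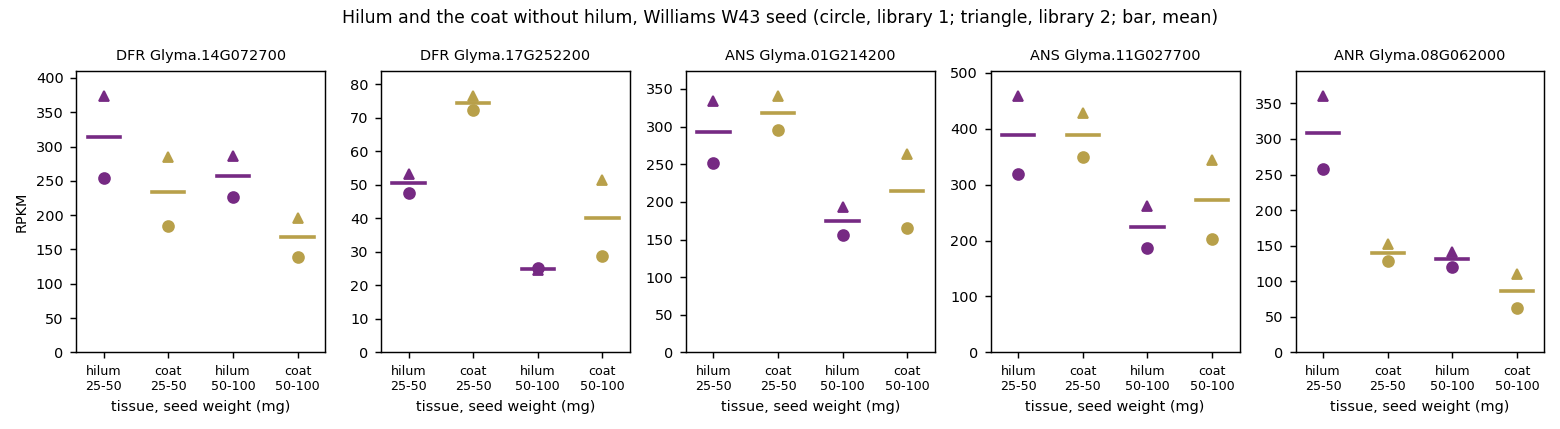
RPKM of the 5 enzymes in hilum (purple) and coat without hilum (ochre) of Williams W43 seeds at 25-50 and 50-100 mg; circles and triangles are the 2 libraries of a group and bars their mean. ANR lies higher in hilum than in coat at each weight (257 and 360.0 against 128.04 and 152.1 RPKM at 25-50 mg), the chromosome 17 DFR lies lower, and the ANS points overlap.

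The chromosome 11 ANS averaged 306 ± 115 RPKM in hila and 331 ± 93.8 in coats (log2 −0.14, 95% interval −0.71 to 0.44, adjusted p = 0.692), a difference that turned to 0.04 after rescaling. The chromosome 1 ANS averaged 234 ± 77.4 and 266 ± 74.1 RPKM (log2 −0.20, 95% interval −0.67 to 0.28, adjusted p = 0.480). Neither was called. The 12 vessel genes, listed as markers of water-conducting tissue, summed to 262 to 619 RPKM in hila and 15.03 to 199.7 in coats, without overlap, and their part in the differences was not tested.

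Most called genes of the pathway list were lower in the hilum. Of the 59 other flavonoid genes 34 were tested, of which 16 were lower in the hilum, 2 higher and 16 not called, with a median of −0.69 against −0.11 for all genes. After rescaling, which moved the median of all genes to 0.03, the calls over all genes split into 5906 higher and 4718 lower, against 3930 and 7794 before, and the list into 4 higher and 16 lower. Of the called list members with the largest changes, 3 were chalcone isomerase family genes: Glyma.06G143000 averaged 27.8 ± 15.6 RPKM in hila and 101.5 ± 53.9 in coats (SD, n = 4 each; log2 −1.81, SE 0.24, adjusted p = 0.0012), Glyma.02G048700 0.556 ± 0.284 and 5.00 ± 3.36 (log2 −1.77, SE 0.21, adjusted p = 0.00077), and Glyma.04G222400 26.5 ± 12.5 and 83.9 ± 37.8 (log2 −1.62, SE 0.19, adjusted p = 0.00060). The 2 genes higher in the hilum were the P450 Glyma.06G202300, at 218.7 ± 39.2 and 118 ± 23.8 RPKM (log2 0.89, SE 0.20, adjusted p = 0.0097), and the flavonol synthase Glyma.05G088100 (log2 0.76, SE 0.18, adjusted p = 0.0123). The other P450, Glyma.13G072100, had too low a mean for the test; it stood at 2.76, 1.01, 1.41 and 1.30 RPKM in hila and at 0.0271, 0.0575, 0.0108 and 0.0242 in coats, without overlap.

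Between the 2 weights of the dissected parts, over both tissues, 1 member was called. The chromosome 17 DFR averaged 32.5 ± 12.7 RPKM at 50-100 mg and 62.4 ± 14.1 at 25-50 mg (SD, n = 4 each; log2 −0.96, SE 0.17, adjusted p = 0.0495) and was the 1 of 5 genes called at a background of 1.07% (0.683% lower). ANR averaged 109 ± 33.2 and 224 ± 106 RPKM (log2 −0.98, SE 0.23, adjusted p = 0.0726). With the library series as a block the differences kept their size and 4 of 5 were called, ANR at adjusted p = 0.0278, the chromosome 1 and 11 ANS at 0.0376 and 0.0464, and 2632 genes were called instead of 313. The call of the chromosome 17 DFR was lost in 7 of 8 leave-outs, without the filter on low values (adjusted p = 0.105) and when rescaled (0.0547), where the calls over all genes split into 216 higher and 221 lower, against 113 and 200 before. Of the 34 pathway genes tested 3 fell and 31 were not called, with a median of −0.67 against −0.03 (19 fell with the block). They were the chalcone isomerase family genes Glyma.06G143000 (log2 −1.42, SE 0.24) and Glyma.04G222400 (log2 −1.15, SE 0.19) and the chalcone synthase family gene Glyma.01G228700 (log2 −0.98, SE 0.17), with adjusted p of 0.0495, 0.0474 and 0.0495. The hilum difference was not shown to change with weight for any of the 5 (interaction log2 −0.48 to 0.20, adjusted p = 1.00 each, 0 of 5 called at a background of 0.0137%).

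Pigmented lines were compared with their yellow counterparts at matched weights. No member was called in any of these comparisons. T157 stood below Richland at all 4 weights for both DFR genes, by 1.31 to 2.999 times on chromosome 14 and 1.07 to 3.12 times on chromosome 17. Being lower in every pair held for 2 of 5 members and for 11.9% of 29080 genes. The chromosome 14 difference was −0.82 (SE 0.22) and the chromosome 17 difference −0.77 (SE 0.26) on the log2 scale, with limma adjusted p of 0.245 and 0.271. The ANS differences were −0.39 (SE 0.21) and −0.42 (SE 0.19), and that of ANR −0.17 (SE 0.13), with T157 below Richland at 3 of 4 weights for each. The test called 0 genes at adjusted p under 0.05 (0.0%) and 4647 genes, 2 members among them, at unadjusted p under 0.05.

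In late coats the chromosome 17 DFR stood at 8.37 and 7.61 RPKM in T157 and at 19.9 and 23.8 in Richland, and the chromosome 1 ANS at 55.0 and 38.4 in T157 and at 78.0 and 81.4 in Richland. In early coats the chromosome 1 ANS stood at 244 and 255.3 RPKM in T157 and at 251 and 248 in Richland. The test of that difference between stages called 0 of 5 members (interaction log2 −1.14, SE 0.45, adjusted p = 0.532 for the chromosome 17 DFR and −0.78, SE 0.33, adjusted p = 0.563 for the chromosome 1 ANS) and 0 genes in all (0.0%; 2625 at unadjusted p under 0.05).

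W44 was lower than W43 in both DFR and both ANS genes in all 5 matched pairs, 4 of 5 members, where 6.2% of 28909 genes were lower in every pair. The chromosome 14 DFR stood 2.06 to 8.88 times lower in W44 (log2 −1.82, SE 0.34, unadjusted p = 0.000147, adjusted p = 0.618). The chromosome 17 DFR stood 1.35 to 6.16 times lower (log2 −1.32, SE 0.30), and ANS 1.35 to 4.14 times lower on chromosome 1 (log2 −1.20, SE 0.33) and 1.35 to 4.32 times on chromosome 11 (log2 −1.21, SE 0.34), with adjusted p = 0.767 for these 3. Here too limma called 0 genes (0.0%; 1658 at unadjusted p under 0.05, 4 members among them). The 75-100 mg W44 coat has no W43 match and was left out of this fit. The 50-100 mg W44 coat, with most of its alignments in undescribed models, held 62.4 RPKM of the chromosome 14 DFR against 268 in W43; scaled to described models the values were 142 in W44 and 297 in W43, and the difference over all pairs was then −1.65 (adjusted p = 0.447). On that scale this coat held 63.7 RPKM of the chromosome 17 DFR against 77.9 in W43, and 282 and 321 of ANS on chromosomes 1 and 11 against 393 and 473. All 4 genes were still lower in W44 in 5 of 5 pairs.

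ANR in W44 turned with stage. In early coats it stood at 109, 143 and 73.8 RPKM in W44 against 232, 187 and 180.9 in W43, lower in 3 of 3 pairs. The 73.8 belongs to the coat with most alignments in undescribed models; scaled to described models, that pair stood at 168 in W44 and 200.8 in W43, and W44 was still lower in 3 of 3. In late coats it stood at 0.638 (95% interval 0.520 to 0.774) and 0.451 (0.354 to 0.568) RPKM in W44 against 0.0769 (0.0369 to 0.142) and 0.0591 (0.0255 to 0.116) in W43, higher in 2 of 2 pairs. The late intervals of W44 and W43, which cover counting error only, do not overlap. The interaction was 1.65 (SE 0.53, adjusted p = 0.332), 0 of 5 members called at a background of 0.404%, and it was called with a pseudocount of 0.1 in place of 1 (log2 3.06, SE 0.54, adjusted p = 0.0114). The late W44 and W43 libraries come from different ranges of library numbers, and line and library series cannot be told apart there.

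In late coats the chromosome 14 DFR was at 45.6 and 56.2 RPKM in W55 against 69.4 and 28.9 in W43 (log2 0.44, 95% interval −0.63 to 1.503), with overlap. The chromosome 17 DFR was at 3.73 and 7.003 RPKM in W55 against 17.99 and 15.4 in W43, without overlap (log2 −1.13, SE 0.43, adjusted p = 0.815), the 1 of 5 members lower in both pairs, as 25.7% of genes were. The differences of ANS were −0.24 (95% interval −1.30 to 0.82) and −0.11 (−1.20 to 0.97) and that of ANR −0.45 (−1.34 to 0.45), with overlap in each. Of the members 0 of 5 were called, at a background of 0.304% of genes. In late W55 coats the chromosome 14 to chromosome 17 DFR ratio was up to 12.2, the highest of the late coats. In the same fit 2 chalcone synthase family genes of the 59-gene list were higher in W55, Glyma.01G228700 at 122 ± 14.5 and 9.47 ± 5.59 RPKM in late coats (SD, n = 2 each; log2 3.97, SE 0.52, adjusted p = 0.0110) and Glyma.11G011500 at 74.5 ± 8.04 and 6.05 ± 3.51 (log2 3.86, SE 0.50, adjusted p = 0.0110), and 9 were lower, such as Glyma.08G110300 at 1.07 ± 0.300 and 8.45 ± 2.57 (log2 −2.06, SE 0.34, adjusted p = 0.0304); after rescaling none of the list was called, and without the 400-500 mg W55 coat 0 genes were called in all. W55 and W44 share the W43 libraries as their reference. The effects of T157 and W44 were not shown to differ in any member (log2 0.17 to 1.00, adjusted p = 0.881 to 0.960, 0 genes and 0.0% called, 1513 at unadjusted p under 0.05), which does not show that they are alike.

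**Figure D5:**
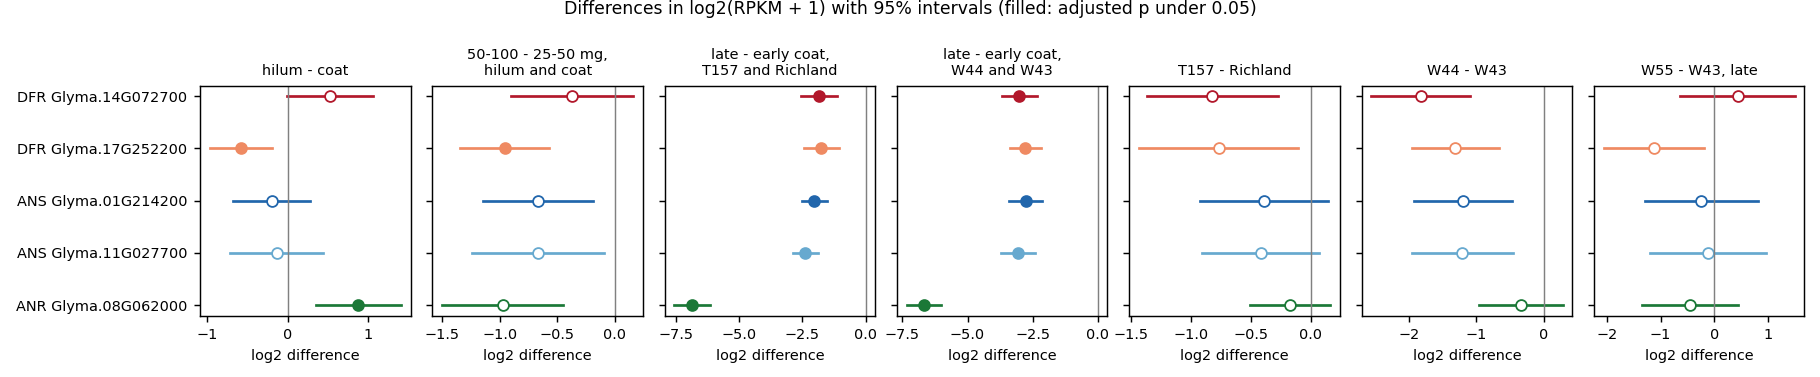
Differences in log2(RPKM + 1) of the 5 enzymes with 95% intervals from the limma fits, for 7 comparisons (panel titles give what was subtracted from what; each panel has its own axis). Filled points passed the adjusted p threshold of 0.05: all 5 in late against early coats in both line pairs, with ANR at −6.84 and −6.68, and single genes in the dissected parts, but none between lines.

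The youngest coats already held these transcripts. At 5-6 mg the coats of UC9, UC501 and UC508 had 132, 225 and 239 RPKM of the chromosome 14 DFR, 53.9, 53.6 and 54.3 of the chromosome 17 DFR and 271, 210.2 and 176 of ANR. The chromosome 11 ANS stood at 266, 303 and 285 RPKM there. Black UC9 had the lowest chromosome 14 DFR and the highest ANR of the 3, with 1 library each and no test. RM38, the brown coat of 25-50 mg, had 142 RPKM of the chromosome 14 DFR, 40.3 of the chromosome 17 DFR and 108 of ANR, so its high ANS was not matched by high DFR or ANR. It was the shallowest library (18.1 M alignments) and had the lowest library number of the coats. Glyma.17G252300 stood at 40.4 RPKM in RM38, 64.0 and 44.3 in the 50-100 mg Richland and T157 coats, and 1.14 or less in the other whole coats. The part of library series in the RM38 levels was not tested.

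In W55, 5-6 mg coats held 29.6 and 43.6 RPKM of the chromosome 14 DFR, against 19.6 and 18.9 in whole seeds. ANR stood at 95.6 and 171 RPKM in these coats and at 48.4 and 31.5 in whole seeds (log2 1.69, SE 0.58, adjusted p = 0.0039), and the ANS genes were higher by 1.31 (SE 0.60) and 1.27 (SE 0.60), with adjusted p of 0.0306 and 0.0357. These were 3 of 5 genes called, all higher, where 97.2% of 24841 genes were called and 1.69% called higher. The median gene was at −1.80 in this comparison, and the 2 coat libraries are those with most alignments in undescribed models. Scaled to described models, an alternative added after the values were seen, all 5 were called higher, by 2.68 for the chromosome 17 DFR to 4.21 for ANR, with adjusted p from 2.67e-05 to 0.00011. The calls also depended on single libraries: without whole-seed library 2 none of the 5 was called, and without coat library 1 all 5 were. On the described scale all genes split into 4826 higher and 9651 lower calls, against 420 and 23728 as deposited, and the pathway list into 22 higher and 7 lower of 35 tested, against 7 and 10 of 22. The list genes with the largest changes as deposited were lower in these coats: the chalcone isomerase family genes Glyma.02G048700 (log2 −3.47, SE 0.41) and Glyma.16G128800 (log2 −2.91, SE 0.35), and Glyma.17G173200, a further gene annotated as dihydroflavonol 4-reductase (log2 −2.84, SE 0.30), with adjusted p of 2.43e-16, 1.33e-15 and 3.31e-19. As deposited, this fit took the spread almost wholly from all genes together. Its p-values, those of the 5 members included, thus do not measure a gene's own spread between these libraries.

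On that scale the young W55 coats had 259 and 225 RPKM of the chromosome 14 DFR, 1044 and 890.2 of the chromosome 1 ANS and 838 and 885 of ANR. As deposited, the chromosome 14 DFR was higher in late W55 coats (45.6 and 56.2 RPKM) than in the 5-6 mg ones (29.6 and 43.6), and on the described scale the order was the reverse (51.6 and 63.5 in late coats, 259 and 225 in the 5-6 mg ones). ANR was lower in the late coats on either scale, at 0.0836 and 0.0371 RPKM as deposited.

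Over the 38 libraries of the larger table the 2 ANS genes followed each other most closely (Pearson r of log2(RPKM + 1) 0.999), and each followed the chromosome 17 DFR at 0.949 and 0.954 and the chromosome 14 DFR at 0.934 and 0.945. ANR followed the other 4 less closely, at 0.712 to 0.763. Over the 8 dissected libraries, however, ANR lay closest to the chromosome 14 DFR (0.866), and the 2 DFR genes had an r of 0.182. These values describe libraries that share tissue and stage contrasts and carry no p.

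Outside the 5, the gene with the pattern nearest to the chromosome 14 DFR and to both ANS genes was the flavonol synthase Glyma.05G088100 (r 0.983, 0.943 and 0.955 over 38 libraries). It stood at 5.55 to 31.1 RPKM in late coats, 29.0 to 165.3 in early coats, 0.653 in the flower and at most 0.0835 in leaf and root. The chromosome 17 DFR lay nearest to the MtN21-type transporter gene Glyma.05G059900 (r 0.936). ANR lay nearest to Glyma.14G032400, a MATE efflux family gene whose best Arabidopsis hit is TT12, which in Arabidopsis carries proanthocyanidin precursors into the vacuole (r 0.985). This gene stood at 0.00573 to 0.209 RPKM in late coats, 10.0 to 101.4 in early coats and 0.0189 in the flower, an outline like that of ANR, but over the 8 dissected libraries its r with ANR was 0.281. The next were the peroxidase family gene Glyma.07G263000 (r 0.976, and −0.09 in the dissected libraries) and the Rossmann-fold gene Glyma.10G204800 (r 0.969, and 0.883), which stood at 0.108 to 2.51 RPKM in late coats and 9.49 to 65.7 in early ones.

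The remaining near-patterned genes were the VPS9-domain gene Glyma.04G116900 and the Ras-related gene Glyma.15G014700 for the chromosome 14 DFR (r 0.956 and 0.943), and Glyma.04G116900 with the RING/U-box gene Glyma.18G201500 for the chromosome 17 DFR (r 0.930 and 0.927). The homeodomain-like gene Glyma.13G307300 came next for both ANS genes (r 0.932 and 0.939), followed by the uclacyanin gene Glyma.09G009800 on the side of chromosome 1 (r 0.926) and the LORELEI-like gene Glyma.06G322100 on that of chromosome 11 (r 0.930). Each of these was higher in the median early coat than in the median late coat; Glyma.06G322100, for example, stood at 31.4 to 87.2 RPKM in late coats and 98.4 to 641 in early ones.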

How the data were processed

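The deposited values are RPKM computed by the authors per cDNA length and total alignments, over 88647 models; the submitters' processing notes name Bowtie. Its version, how reads with several matches were treated and the genome build were not given in the labels. Values times length and library total gave whole reads within 0.01 in all libraries, which returned the totals and reads quoted. Exact Poisson intervals are 95%. Libraries with no read were set against a fixed floor of 3 reads, which is not the limit of those intervals. Reads matching several copies may be counted in each, so the paired DFR and ANS genes are not fully resolved. The 4 value columns with no sample label were not used.

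Differences were fitted with limma 3.58.1 in R 4.3.3 (eBayes with trend) on log2(RPKM + 1) for genes with a mean of at least 1 RPKM, adjusted by Benjamini-Hochberg over all genes tested. Hilum and weight were fitted together (8 libraries); line pairs with weight as a block; late (from 300 mg) against early (up to 100 mg) with line. The fit was run on simulated reads with planted changes, for the hilum and the T157 designs. Those reads had no weight effect and no paired libraries, so the run does not check the spread in these data. The other tables and figures were made in python 3.11.15.

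Library numbers in the hilum titles form 2 series; deviations from group means correlated within them at 0.442 to 0.655 over 6 pairs, so the series pairs the libraries. Coats and whole seeds of W55 shared only a number (r −0.08).

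Members, lists (59 flavonoid genes and markers, by description) and tests were chosen with earlier results of these data known. Named list genes are the called ones with the 3 largest changes and a mean of at least 5 RPKM in the higher group, plus the 2 P450s; near-patterned genes are the 3 described genes of highest r. The alternatives were a pseudocount of 0.1, no filter, median-ratio rescaling, the first model of a gene, leaving out each library, blocks, and totals over described models (chosen after seeing the data for young W55 coats, as were the described-scale values of single libraries and the other genes named for sharing a best hit).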

Additional observations from a re-analysis of the deposited data

Results flagged for a closer look

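ANR (Glyma.08G062000) was flagged because its difference between W44 and W43 pointed in opposite directions by stage: lower in all 3 early pairs and higher in both late pairs. The interaction term was 1.65 on the log2(RPKM + 1) scale and did not pass the limma threshold (adjusted p = 0.332, range over the alternatives 0.0114 to 1.00). The late values rest on 102 and 73 reads in W44 and 10 and 8 in W43. The late W44 libraries are numbered with early coats of the same line, and the late W43 libraries with late coats of other lines; the part of this in the difference was not tested. No group of 4 to 10 libraries had a lone library far from the others in any of the 20 screens.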

How the results depend on the processing

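All 5 members stayed called lower in late coats of both line pairs under every alternative run. Over members and comparisons, 811 alternative values kept direction and side of the threshold, 24 lost the call, 12 gained it and 28 turned direction. Where a call or direction moved, the cause was not tested.

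Counts of called genes moved for the weights of the dissected parts (313) to 619 with a pseudocount of 0.1 and 0 without the filter, and to 0 to 50 with a library left out. The hilum-by-weight count (4) moved to 0, 21 and 7 with that pseudocount, without the filter and rescaled, and to 0 with any library left out. The other leave-out ranges were 0 to 1 for W44 (main 0), 0 to 0.572% of genes for W55 (0.304%, 88 genes; 0.00954% (5 genes) without the filter and 0.0209% (6 genes) rescaled), 0 to 1 for T157 against W44 effects (0; 2 with the pseudocount), 9250 to 18632 for late coats of W44 and W43 (11713; 19014 without the filter, 18655 rescaled, 19216 on described totals), 0 to 270 for the stage interaction of T157 (0), 63 to 723 for that of W44 (118; 69, 353, 802 and 686 with the pseudocount, without the filter, rescaled and on described totals) and 18276 to 25970 for young W55 coats (24148; 37250, 9457 and 14477 without the filter, rescaled and on described totals). They were 8028 to 11801 for the hilum (11724), 11972 to 15487 for late coats of T157 and Richland (15343) and 0 for T157 against Richland (0).

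Members called in the hilum (2) went to 1 rescaled and 0 to 2 in leave-outs, and at the dissected weights (1) to 0 without the filter or rescaled and 0 to 1 in leave-outs. In the W44 stage interaction (0) the pseudocount gave 1. In young W55 coats (3) rescaling or described totals gave 5, and leave-outs 0 to 5.

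With the library series as a replicate block, 2632 genes and 4 members were called for the dissected weights and 93 genes for the hilum-by-weight term; beside these and the chromosome 14 DFR in the hilum it changed no other member's call. W55 coats and whole seeds share only a number, and that block left 0 members called.

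Directions turned in uncalled values. The chromosome 11 ANS in the hilum was at 0.038 rescaled, and −0.26 to 0.041 in leave-outs. ANR was at 0.22 in W44 with the pseudocount, and for T157 against W44 effects at −0.40 with it, −0.060 on described totals and −0.070 to 0.40 in leave-outs. Leave-outs gave −0.12 to 0.51, −0.46 to 0.35, −0.47 to 0.20 and −0.62 to 0.14 for the chromosome 14 and 17 DFR and the chromosome 1 and 11 ANS in the hilum-by-weight term. In W55 against W43 they gave −0.0071 to 0.97, −0.59 to 0.13 and −0.46 to 0.27 for the chromosome 14 DFR and the chromosome 1 and 11 ANS. They gave −0.33 to 1.03 for ANR in the T157 stage interaction and −0.10 to 0.61 for the chromosome 17 DFR in young W55 coats. Depth limits ANR in late coats.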
